A study of Mus musculus with 4 samples.

Results

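The transcripts described here come from genes of chromatin regulation: enzymes that write or erase marks on histones and DNA, proteins that read those marks, and machines that move nucleosomes. A rule on gene symbols took them from a deposited table of m6A-seq regions, and no measured value entered the rule. It found 111 regions under 57 genes, of 6697 distinct regions and 3882 genes in the whole table. Each region counts once per gene. The prefix Mll also took 4 Mllt genes, which are fusion partners in leukaemia. Of these, Mllt1 and Mllt3 encode readers of acylated histones, whereas Mllt4 encodes afadin, a protein of cell junctions, and Mllt11 is not known as a chromatin enzyme or reader. They are kept in all counts and named where they appear.

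The compared groups were mouse embryonic stem cells of the E14K strain, either wild type or deficient in Gsk-3 (double knockout, DKO), the kinases that hold back Wnt signalling. Both had been grown without feeder cells and without the self-renewal factor LIF for 14 days. Messenger RNA carrying N6-methyladenosine (m6A) was pulled down with an antibody, and each genotype had 1 such library. An input library of total mRNA exists for each genotype, but the table has 0 input columns, so a change in transcript level and a change in methylation cannot be told apart here. The labels do not say how many clones or cultures stand behind a library, nor how the cells were made deficient.

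Chromatin regulators work in layers. Methyltransferases such as the Mll and Setd1 proteins place methyl groups on histone lysines, acetyltransferases such as p300 and CBP add acetyl groups, and demethylases and deacetylases take them off. Bromodomain and chromodomain proteins bind the marks, remodelers of the SWI/SNF and CHD families spend ATP to shift nucleosomes, and Dnmt and Tet proteins write and oxidise methylated cytosine. In embryonic stem cells these layers hold developmental genes silent but ready for use. m6A is a mark on RNA rather than on chromatin. It is written in a short sequence context around the adenosine, most often in coding exons and near stop codons, and it commonly shortens the life of a transcript.

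The reference tables used here hold sequence only around transcription starts, from 250 bases before to 50 after, so most regions have no sequence to show. Regions of 5 of the 57 genes reached into such a window. Stretches from 4 of them are given because only such windows give readable bases under these genes' regions. They are from RefSeq (GRCm38.p6), 5′ to 3′ on the gene's strand, and capitals mark the first match on that strand to a searched word.
Arid1a, chr4:133753986-133754015, minus strand, bases -30 to -1 from the start: cctccctccctccctcctcctttctccggc
Arid1b, chr17:4994923-4994952, plus strand, bases -151 to -122: ccgtcacgacctGAACAtggcccatagcgc
Cbx1, chr11:96789158-96789184, plus strand, bases 23 to 49: agagtgagaggctcttttgttcggctg
Mllt4 (Afdn), chr17:13760343-13760372, plus strand, bases -198 to -169: cggctccggtgaGGACTcacgcctccggca

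The words searched on both strands were GGACT, its variant GGACA, then GAACT with its variant GAACA, all common forms of the m6A context. They cannot overlap one another on the same strand. On the gene's strand, GAACA lay under the Arid1b region and GGACT under the Mllt4 region, while the 125 bases under the Arid1a region held none of the 4 on either strand. On the other strand, GAACA lay under the Cbx1 region, within the stretch shown, and GGACA under the Arid1b region. These are not in capitals. Among all 32851 windows of 300 bases, 24.4% held GAACA and 26.1% held GGACT on the gene's strand, and 69.3% held at least 1 of the 4. On either strand 41.7% held GAACA, 47.9% held GGACA and 90.2% at least 1. By the RefSeq starts used, the words in capitals in Arid1b and Mllt4 lie before the start of transcription. The bases searched under these regions (179 for Arid1b, 127 for Mllt4) were fewer than the 300 of a full window, so the shares are not matched to them. A match is a description of the letters. The counts in these regions were 55 wild-type reads against 5 from the double knockout for Arid1a, 34 against 0 for Arid1b, 28 against 1 for Cbx1 and 39 against 1 for Mllt4. The Arid1a stretch is C-rich, and G and C made up 73.6% of the bases under that region, where the median window had 52.7%.

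Wild-type counts in the 111 chromatin regions ran from 15 to 193 reads with a median of 48, and double-knockout counts from 0 to 29 with a median of 1. The chromatin transcripts therefore lay near the middle of the table, whose wild-type median was 43, and far from its highest count of 13799. In all 111 regions the wild-type count was the higher, as it was in 100% of the table's regions, so the direction belongs to the list and says nothing about these genes. Folds are the wild-type over the double-knockout count times the constant 0.825 that the authors' deposited table carries. Where a region had 0 reads in the double knockout, 3 reads stood in for them. The fold of such a region is a bound at that floor, written as at least. The lower end of its exact 95% interval is smaller, such as 34.2 for Bcorl1 where the floor gives 42.6. For Dnmt1 it is 7.87 where the floor gives 10.2, so some regions counted as at least 10-fold lower have intervals that reach below 10. The floor also leaves out empty regions with fewer wild-type reads. The Cbx7 region, with 35 against 0, has a bound of 9.62 and is not counted as 10-fold lower. All intervals are exact 95% intervals. Those on counts, folds and shares of reads cover counting error only. They take reads as independent molecules, which PCR copies without molecular identifiers are not. Those on shares of regions, and on the median over regions, take regions as independent, which regions of 1 gene may not be. With 1 library per group there is no replicate check, no test between genotypes and no p-value.

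Summed over their regions, the chromatin genes had 6966 wild-type reads against 380, a 15.1-fold difference (13.6 to 16.8), where all regions together gave 17.5-fold. With 0.5 added to both counts, the log2 ratio of the double knockout to the wild type had a median of -4.22, against -4.93 for all regions, with quartiles of -5.76 and -3.17. A count at least 10-fold lower in DKO cells was found in 65 of the 111 regions (58.6%, 48.8 to 67.8), beside 52.5% of all regions. No double-knockout reads were found in 40 (36.0%, 27.1 to 45.7), beside 50.5% of all regions. Another 34 regions had 1 to 3 double-knockout reads. By these shares the chromatin regions had fewer empty double-knockout counts than the table, and a share of 10-fold differences whose interval takes in that of the table. The 10-fold shares depend on the empty regions, since at the floor one with few wild-type reads falls short of 10-fold. Of the 65 regions, 44 had double-knockout reads. Among regions with such reads the median fold was 12.8 for the chromatin genes, beside 13.6 for the whole table. The 2 sets differ in make-up, with 82.0% of the chromatin regions exonic against 55.7% of all regions. Like is set beside like by annotation below.

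**Figure D1:**
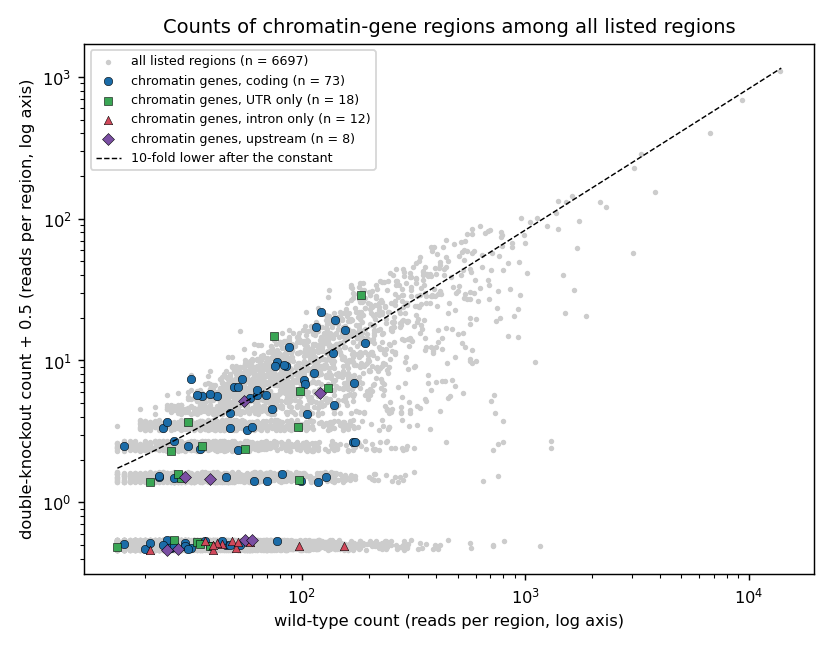
Each point is a region, by its wild-type count (horizontal, reads, log axis) and its double-knockout count plus 0.5 (vertical, reads, log axis, with a small random spread so that equal counts can be seen). Grey points are all 6697 regions and coloured points the 111 chromatin regions by annotation. The dashed line marks a 10-fold difference. The chromatin regions end at 193 wild-type reads, and all 12 intronic ones lie in the bottom band of 0 double-knockout reads.

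By the deposited annotation, 73 chromatin regions (65.8%) touched coding sequence, 18 (16.2%) touched only untranslated sequence, 12 (10.8%) lay in introns only and 8 (7.21%) lay upstream of the gene. Counting every region of the table once per gene in the same way, coding regions made up 47.0% and intronic ones 20.6%. Among the chromatin regions, 13 touched a 3'UTR and 10 a 5'UTR. Regions that ran across an exon and intron border numbered 29 (26.1%, 18.2 to 35.3), beside 19.1% of the table.

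The position of a region went with its double-knockout count. All 12 intron-only regions of chromatin genes had 0 double-knockout reads (100%, 73.5 to 100), beside 67.8% of all intron-only regions and 68.2% of the 871 with wild-type counts in the same range. In wild-type cells they had 21 to 155 reads each (median 46.5), in sum 687 reads against 0. Taken 1 by 1, with the floor of 3 reads in each region, their bounds were 5.77-fold to 42.6-fold. Of the 73 coding regions 19 were empty, that is without double-knockout reads (26.0%, 16.5 to 37.6), beside 34.9% of all coding regions. Of the 18 regions in untranslated sequence only, 5 were empty (27.8%, 9.69 to 53.5), beside 40.1%, and of the 8 upstream regions 4 were, beside 45.7%. With exonic regions alone, 24 of 91 were empty (26.4%, 17.7 to 36.7), beside 36.1% of all exonic regions, which that interval takes in. Their median log2 was -3.83 beside -4.27, and their summed fold 13.1 (11.8 to 14.6) beside 14.8.

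**Figure D2:**
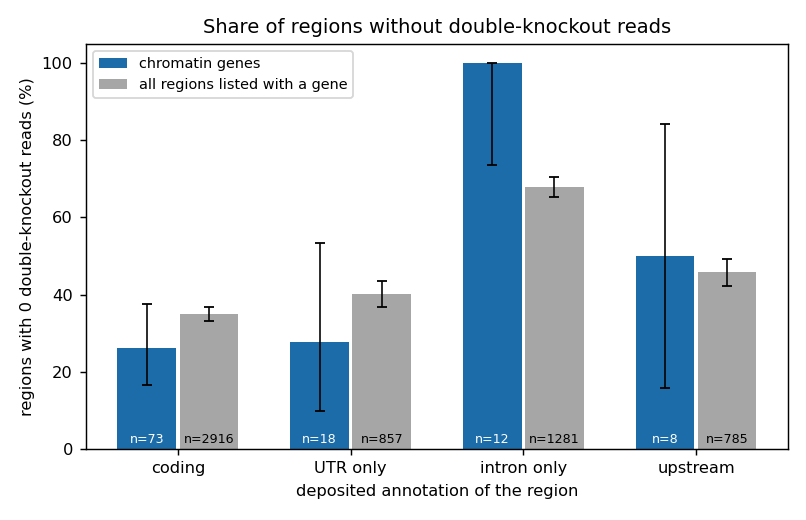
Bars give the percentage of regions with 0 double-knockout reads (vertical axis, from 0) for each annotation class (horizontal axis), blue for chromatin genes and grey for all regions listed with a gene, each counted once per gene. Error bars are exact 95% intervals and n is the number of regions. The intronic bar of the chromatin genes stands at 100% on 12 regions, and the coding bar at 26.0% on 73.

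The intronic regions belonged to 12 genes, with 1 region each. Bcorl1, a relative of the Polycomb-linked corepressor Bcor, had an intronic region with 155 wild-type reads against 0 (chrX:48398646-48398894), at least 42.6-fold lower. Mll3 (now Kmt2c), a methyltransferase that acts at enhancers, had 97 against 0, at least 26.7-fold lower. Smarca4, which encodes Brg1, the ATPase of the SWI/SNF complex, had 59 against 0, and the demethylase genes Kdm5b and Kdm4b had 52 and 49 against 0. The deacetylase gene Hdac8 had 51 against 0. For Ep300 and Mllt1, exonic regions of the same gene did have double-knockout reads. Ep300, the gene of the acetyltransferase p300, had 44 against 0 in its intron but 32 against 7 and 78 against 9 in coding exons. The share of double-knockout reads was 0 (up to 8.04%) in the Ep300 intron and 17.9% (7.54 to 33.5) in its coding region with 32 against 7, and these intervals overlap narrowly. The difference between regions of a gene was not tested. Ezh1, Prmt3 and Mllt3 (37, 40 and 42 against 0) were seen through their introns alone. The same holds for Bcorl1, Mll3, Smarca4, Kdm5b, Kdm4b and Hdac8, which have no exonic region in the list.

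Wild-type read number also went with the empty counts. At 15 to 29 wild-type reads, 13 of 25 chromatin regions were empty (52.0%, 31.3 to 72.2), beside 75.7% of all regions in that range. At 30 to 59 reads the share was 51.1% (23 of 45), beside 52.8%. At 60 to 99 reads it was 14.3% (3 of 21, 3.05 to 36.3), beside 35.3%. At 100 reads and over it was 5.00% (1 of 20, 0.127 to 24.9), beside 23.4% of all regions with 100 to fewer than 200 reads, and the 1 empty region was the intron of Bcorl1. Among exonic regions with 60 to 99 wild-type reads, 1 of 19 was empty, that of Cbx6, beside 24.5% of all exonic regions in the range. Of the 18 exonic regions with at least 100 reads 0 were empty (up to 18.5%), beside 14.1% of all exonic regions in that range.

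The methyltransferase genes were the largest group, with 17 genes and 41 regions, the 4 Mllt genes included. Their regions had a median log2 of -4.07 and a summed fold of 13.2 (11.3 to 15.5), and 26 of 41 (46.9 to 77.9%) were at least 10-fold lower, beside 52.5% of all regions. Mll2 (now Kmt2d), a second enhancer methyltransferase of the family, had the most regions of any chromatin gene, with 11 on chromosome 15 that summed to 860 reads against 53 (13.4-fold, 10.1 to 18). Its deepest region, in a coding exon (chr15:98862054-98862327), had 174 against 2, which is 71.8-fold (19.6 to 597), so the deepest region and the sum give different sizes for this gene. Mll1 (now Kmt2a), which maintains expression of Hox genes, had 5 regions on chromosome 9, with 264 reads against 14 in all (15.6-fold, 9.11 to 28.8).

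The Setd1 genes encode the methyltransferases of the COMPASS complexes, which mark promoters. Setd1b had the highest wild-type count of all chromatin regions, 193 against 13 in a coding exon (chr5:123148063-123148401), 12.2-fold (6.99 to 23.4). Its other regions had 141 against 18 (6.46-fold) and 61 against 1 (50.3-fold, 8.70 to 2019). Setd1a had 119 against 1 in a region across an exon border (chr7:127795632-127795836), 98.1-fold with a counting interval of 17.3 to 3909. A single double-knockout read sets this wide interval. The same region is also listed as upstream of Hsd3b7.

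Prmt6, an arginine methyltransferase, stood at the other end. It had 75 against 14 in its 3'UTR (chr3:110250616-110250894), 4.42-fold (2.48 to 8.47), the smallest fold among the deepest regions of the 35 genes at or above the table's median count. Its second region had 21 against 1. Mllt4 had 122 against 20 in a coding exon (5.03-fold, 3.12 to 8.53), and Mllt1 156 against 17 (7.57-fold, 4.58 to 13.3). Ehmt2, the gene of the silencing methyltransferase G9a, had 69 against 5 (11.4-fold, 4.65 to 36.2) across an exon border and 27 against 0 in a second such region. The remaining members, Nsd1, Setd2 and Prmt5, had their deepest regions at 48 against 3, 39 against 0 and 26 against 2.

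Acetyltransferase and coactivator genes comprised 5 genes and 9 regions, of which 3 (7.49 to 70.1%) were at least 10-fold lower, beside 52.5% of all regions. Their summed fold was 11.8 (8.03 to 18). Ep300 had 154 reads against 16 over its 3 regions (7.94-fold, 4.74 to 14.2), and the coding region with 32 against 7 had the smallest fold of all 111 regions, 3.77 (1.63 to 10.1). Its close relative Crebbp, the gene of CBP, had 74 against 4 in a coding exon (15.3-fold, 5.71 to 57.5) and 31 against 2 in another. The intervals of the p300 and CBP sums (6.41 to 40.2 for Crebbp) overlap, and their difference was not tested. The nuclear receptor coactivator gene Ncoa3 had 63 against 6 (8.66-fold, 3.76 to 24.5) and Ncoa2 31 against 0. Kat2a, the gene of the acetyltransferase Gcn5, had 32 and 15 against 0.

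Demethylase genes comprised 6 genes and 8 regions, with a median log2 of -5.34, and 6 of the 8 regions (34.9 to 96.8%) were at least 10-fold lower, beside 52.5% of all regions. Kdm6b, whose enzyme removes the mark of Polycomb, had 114 against 8 in a coding exon (chr11:69404670-69404868), 11.8-fold (5.77 to 27.9), and 48 against 0 in the next region. Kdm3b had 70 against 1 (57.7-fold, 10.0 to 2313) and 25 against 0. Kdm2b, which brings a Polycomb complex to CpG islands, had 34 against 5, the smallest fold of the group at 5.61 (2.18 to 18.4). Kdm4a had 23 against 1. Of the group's 8 regions, 4 had 0 double-knockout reads, the introns of Kdm4b and Kdm5b among them, and the counts in Kdm3b and Kdm4a were 1.

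Among deacetylase and corepressor genes (5 genes, 7 regions), 4 of the 7 regions (18.4 to 90.1%) were at least 10-fold lower, beside 52.5% of all regions, and the summed fold was 17.4 (11.6 to 27.5). Ncor1, a corepressor scaffold that carries a deacetylase to nuclear receptors, had 54 against 7 (6.36-fold, 2.89 to 16.6). Hdac4 had 21 against 0 across an exon border. Bcorl1 and Hdac8 were seen in introns only, and the Hdac8 region also overlaps Gm32262 in RefSeq.

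Reader and Polycomb genes comprised 9 genes and 11 regions, with a summed fold of 11.7 (8.41 to 16.7), and 4 of the 11 regions (10.9 to 69.2%) were at least 10-fold lower, beside 52.5% of all regions. Brd2, a bromodomain protein of the BET family, had 185 against 29 in its 5'UTR (chr17:34119051-34119240), 5.26-fold (3.54 to 8.08), the highest double-knockout count of any chromatin region. At 0.974 wild-type reads per base it was also the densest of the 111, above 95% of all regions in the table. Its BET relative Brd3 had 46 against 1 (37.9-fold, 6.48 to 1531) and 26 against 0. Summed over both regions, Brd3 had 72 against 1, with an interval of 10.3 to 2378 that lies above that of Brd2, although that of its deeper region alone (6.48 to 1531) overlaps it.

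Among the Polycomb chromodomain genes, Cbx6 had 78 against 0 in a coding exon (chr15:79828152-79828350), at least 21.4-fold lower, and Cbx7 35 against 0. That Cbx6 region is also listed as an intron of Npcd, and the Cbx7 region, across an intron and 3'UTR border, overlaps Apobec3 in RefSeq. Cbx1, a heterochromatin protein rather than a Polycomb one, had 28 against 1, as had Asxl1, a partner of a histone deubiquitinase. Brd1 had 16 against 2.

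The remodeler group, set by the prefixes Arid, Chd and Smarc, comprised 12 genes and 29 regions, with a summed fold of 20.4 (16.3 to 25.8). Of the 29 regions 19 (45.7 to 82.1%) were at least 10-fold lower, beside 52.5% of all regions. By prefix the group also takes in DNA-binding ARID factors such as Arid3a, so it is wider than the remodeling machines. In each of the role groups so far the interval takes in the share of the table. Arid3a, a DNA-binding factor of the ARID family, had 6 regions on chromosome 10 with wild-type counts of 96, 131, 57, 171, 46 and 97 from 5′ to 3′ against 3, 6, 3, 7, 0 and 1. Its sum was 598 against 20 (24.7-fold, 15.8 to 40.7), and the intervals of all its regions overlap. Arid3b, its paralog, had 103 against 7 (12.1-fold) and 27 against 2. Arid2, a subunit of the PBAF form of SWI/SNF, had 99 against 1 at its first exon (81.7-fold, 14.3 to 3257) and 36 against 5 in a coding exon (5.94-fold, 2.32 to 19.4), and these intervals overlap.

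The BAF subunit gene Arid1a had 5 regions on chromosome 4. In coding sequence it had 50 against 6 (6.87-fold, 2.95 to 19.6), 16 against 0 and 35 against 2. The other regions, with 55 against 5 and 56 against 0, are annotated as upstream at -370 and -696 bases, and they lie within the RefSeq span of Arid1a. Its paralog Arid1b had only the region whose bases are shown above. Arid5a had 39 against 0 and 29 against 1, both in its 5'UTR.

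Of the genes with the prefix Chd, Chd7, mutated in CHARGE syndrome, had 4 regions on chromosome 4, all in the last part of the gene. The deepest spanned the end of the coding sequence and the 3'UTR (chr4:8866463-8866677) and had 140 against 4 (28.9-fold, 11 to 107). The others had 104 against 6, 106 against 4 and 26 against 0, for a sum of 376 against 14 (22.2-fold, 13.0 to 40.9). Chd6 had 169 against 2 in a coding exon (chr2:160949976-160950159), 69.7-fold (19.0 to 580), and 42 against 5 in another (6.93-fold, 2.74 to 22.4). Chd8, linked to autism, had 63 against 5 and 39 against 5 (8.41-fold over both, 4.39 to 18.1). Chd9 and Chd1l had 30 and 20 against 0.

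In the DNA methylation group (3 genes, 6 regions), Tet3, an oxidase of methylated cytosine, had 4 regions on chromosome 6. Its coding regions had 138 against 11 (10.3-fold, 5.61 to 21.2), 52 against 6 and 44 against 0, and its 3'UTR had 31 against 3. Dnmt1, the maintenance methyltransferase, had 37 against 0 in a coding exon (chr9:20908530-20908700), at least 10.2-fold lower. Dnmt3l had 25 against 0 in an upstream region that lies in the neighbouring gene.

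By the deepest region of each gene, 36 of the 57 genes were at least 10-fold lower, beside 55.6% of all listed genes, and the median log2 was -4.68 beside -4.85. Every region was empty in 20 genes, every region had double-knockout reads in 22, and 15 genes had both kinds. Among all listed genes, 42.3% had no double-knockout reads in any region. By group, the counts at least 10-fold lower were 13 of 17 methyltransferase, 1 of 5 acetyltransferase, 5 of 6 demethylase, 3 of 5 deacetylase and corepressor, 4 of 9 reader, 8 of 12 remodeler and 2 of 3 DNA methylation genes. At the floor of 3 reads, an empty region with few wild-type reads is counted as under 10-fold. Kat2a (at least 8.80-fold), Ncoa2 (8.52), Asxl2 (7.70) and Cbx7 (9.62) are among such genes, without any double-knockout reads. A gene outside these counts therefore need not have a smaller difference. Groups of this size do not separate from one another by these counts, and no difference between them was tested.

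**Figure D3:**
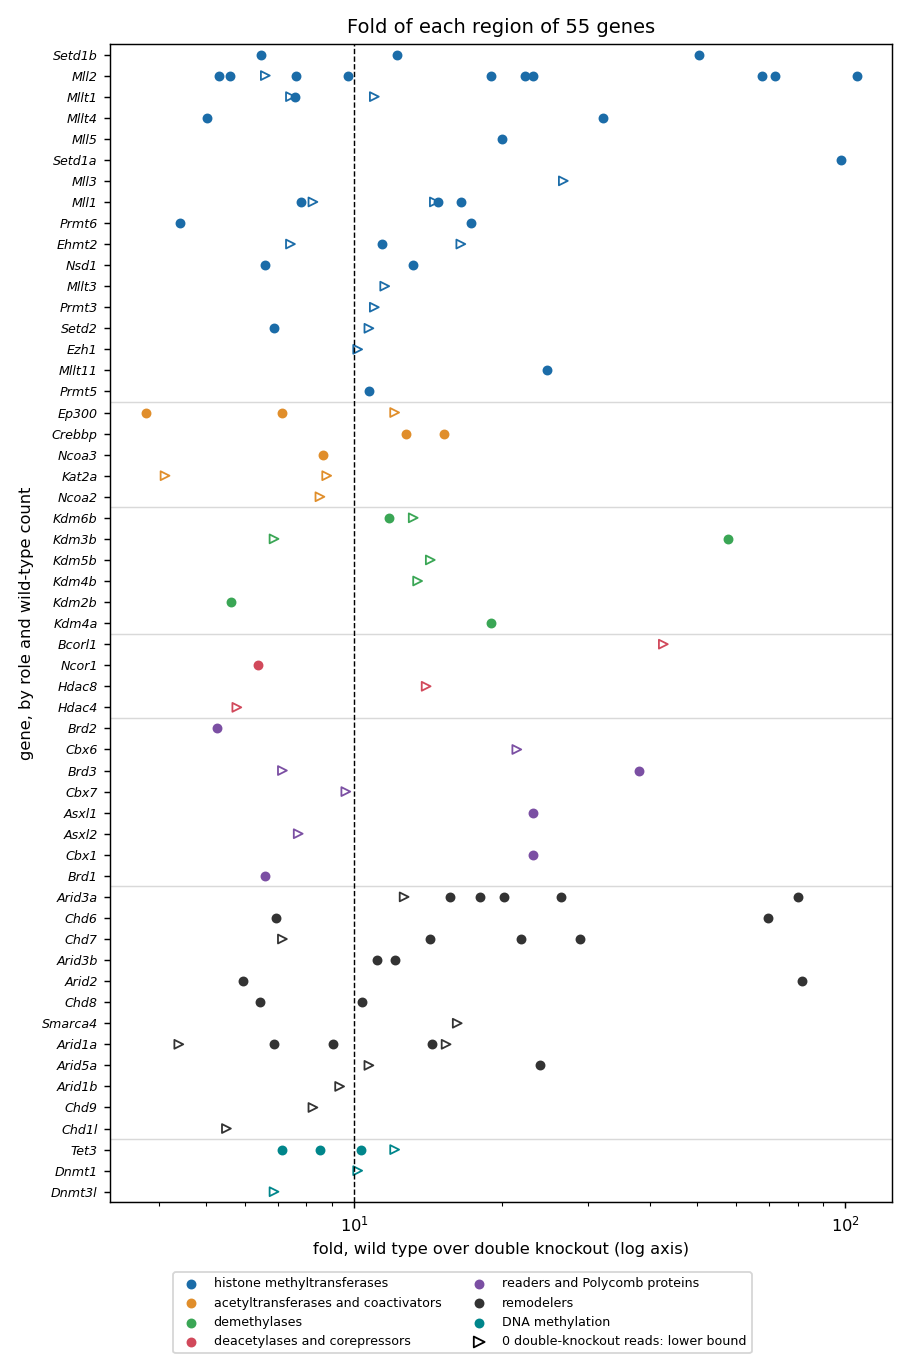
Each row is 1 of 55 of the genes, ordered by role and by its highest wild-type count. Filled points are the folds of regions with double-knockout reads (horizontal, log axis), open triangles are lower bounds of regions with 0, and the dashed line is at 10. Mll2 spreads from 5.32 to 106, whereas the regions of Arid3a with double-knockout reads lie between 15.7 and 80.0.

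Regions of 1 transcript share their library and gene, so they show how even the difference was along it. The clearest spread was in Mll2, singled out after its values were seen. From 5′ to 3′, its wild-type counts were 174, 83, 24, 88, 82, 128, 23, 59, 116, 27 and 56. The double-knockout counts in the same order were 2, 9, 0, 13, 1, 1, 1, 5, 18, 1 and 2. Its double-knockout share of reads was 1.14% (0.138 to 4.04) in the first region and 9.78% (4.57 to 17.8) in the second, which lies 168 bases away in the genome. The share was 12.9% (7.04 to 21.0) at 18.1 kb from the transcription start, 0.775% (0.0196 to 4.24) at 20.3 kb and 13.4% (8.16 to 20.4) at 31.0 kb. High and low regions are thus interspersed along the gene. The region at 31.0 kb shares 19 bases with its neighbour at 31.1 kb, so some of their reads may be the same.

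Of the 55 pairs of Mll2 regions, 8 had intervals that do not overlap. In the other 25 chromatin genes with several regions, 0 of 77 pairs did. Over all 26 such genes this is 8 of 132 pairs (6.06%), beside 4.09% of the pairs in all listed genes, and 1 of 26 genes (3.85%) beside 83 of 1175 (7.06%). Mll2 supplied 55 of the 132 pairs. No test was made of Mll2 against the other genes, and a pair was called from counting intervals alone.

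**Figure D4:**
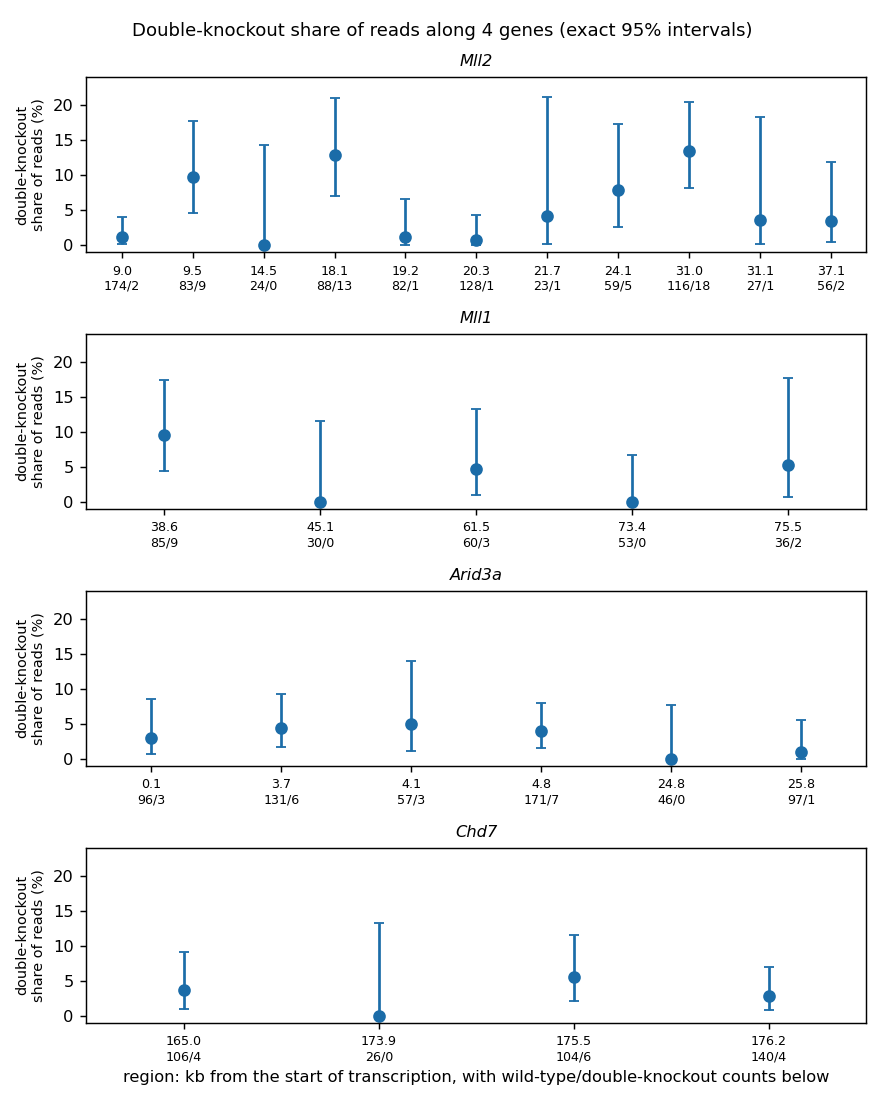
For Mll2, Mll1, Arid3a and Chd7, points give the double-knockout share of the reads in each region (vertical, percent) in order of distance from the transcription start (horizontal, kb, equal spacing), with the wild-type and double-knockout counts under each. Bars are exact 95% intervals. In Mll2 the shares run from 0 to 13.4%, with the first region at 1.14% and its neighbour at 9.78%, while within each of the other genes all intervals overlap.

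Several regions carry a chromatin gene's name but may come from another transcript, since the table gives no strand. Of the 111 regions, 14 are also listed under a second gene, among them 6 of the 8 upstream ones. The upstream region of Ehmt2 (60 against 0) is a coding exon of Zbtb12, and that of Mllt11 (30 against 1) runs across an exon border of Cdc42se1. The upstream region of Mll5 (121 against 5) is listed in the 3'UTR of 5031425E22Rik, that of Asxl2 (28 against 0) in that of 1110002L01Rik. The region of Dnmt3l (25 against 0) lies in an intron of Aire, and that of Mllt4 (39 against 1) in an intron of Tcte2. For Mll5, Asxl2, Dnmt3l and Mllt11 there is no other region. In Kat2a, Setd1a and Cbx6 too, every region is listed under a second gene, so 7 genes have no region listed under them alone. The Kat2a regions are listed as upstream of Dhx58 and of Hspb9, and that of Setd1a as upstream of Hsd3b7. These lie within their own RefSeq gene and in no other. By RefSeq spans, 9 of the 111 regions lie in another gene. Without the 14 shared regions the median log2 was -3.97, and 32 of 97 regions were empty.

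RefSeq holds 153 protein-coding genes whose symbol, current or as listed, falls under the rule. Of these 64 (41.8%) were listed, beside 15.8% of all protein-coding genes. Among genes spanning at least 20000 bases the shares were 44.0% and 22%. These shares were not matched for expression in these cells, and the gap was not tested. Afdn counts only because it was listed under its older name, Mllt4. Of the 64, 7 stand in the table under older names that the rule does not take, such as Wbp7 (Kmt2b, 145 against 7 in its deepest region), Whsc1 (Nsd2, 150 against 11) and Myst4 (Kat6b, 96 against 15). Well-known genes that were not listed include Ezh2, Kdm1a, Kdm6a, Tet1, Tet2, Dnmt3a, Dnmt3b, Hdac1 and Hdac2. Their absence gives no value, since the selection of regions for the table is not described in the sources used here.

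Genes of the same complexes outside the rule gave a like picture. Of 116 such genes, 41 were listed, with a median log2 of -4.51 for their deepest regions, and 21 of them were at least 10-fold lower, beside 55.6% of all listed genes. The largest folds with double-knockout reads were those of Whsc1l1 (443 against 2 in an upstream region, 183-fold, 50.3 to 1513) and of Sap130, a SIN3 subunit (121 against 1, 99.8-fold, 17.6 to 3974). The smallest were those of Jarid2, a Polycomb cofactor (34 against 6, 4.67-fold, 1.94 to 13.6), Myst4 (5.28-fold) and Men1, the menin gene, whose product binds Mll1 (139 against 21, 5.46-fold, 3.44 to 9.10). The share listed differed by complex, from 1 of 11 SIN3 and CoREST genes and 2 of 10 SWI/SNF genes to 6 of 7 ISWI genes. These sets hold no gene with the prefix Smarc, which falls under the rule, and Smarca1 and Smarca5 were not listed. The listed ISWI genes include Baz2a with 208 against 6 and Baz1b with 144 against 13.

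As to the cells, 2 of 8 pluripotency markers were listed, with 242 reads against 18 summed over their regions (11.1-fold, 6.87 to 19.0). Their values in the deepest region were 55 against 6 for Pou5f1 and 146 against 7 for Esrrb, both transcription factors of the pluripotent state. Of the primitive endoderm markers 3 of 5 were listed, with 243 reads against 17 (11.8-fold, 7.21 to 20.6). These folds lie near the 15.1-fold of the chromatin genes, and both intervals take it in. Of the neural markers 3 of 4 were listed, with 3688 against 15 (203-fold, 123 to 363). In their deepest regions Nes, an intermediate filament of neural progenitors, had 1110 against 10 and Sox11 1308 against 2, but Tubb3 only 37 against 2. All 4 mesoderm markers were listed, with 319 against 3 (87.7-fold, 29.7 to 428). Their deepest regions had 99 against 0 in Tbx20, 89 against 0 in Twist1, 45 against 0 in Snai1 and 30 against 1 in T. Of 4 fibroblast markers 2 were listed, with 263 against 0, where the interval starts at 58.4. The neural, mesoderm and fibroblast intervals, which are of summed reads and so weigh the deepest markers most, lie above that of the chromatin genes (13.6 to 16.8). A listed region is not a level of expression, so the labelled cell type could not be checked, and 6 of the 8 pluripotency markers have no value. The part of these marker differences in the values of the chromatin genes was not tested. Depth could not be compared, since the table holds neither input counts nor library totals.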

How the data were processed

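The data are 1 deposited table of regions with gene annotation. The authors' counts per region were used as deposited: whole numbers per genotype. The headers name the genotype only, and the columns were matched to the m6A rather than the input libraries by the assay. The deposited ratio equals the quotient of the counts, wild type on top, multiplied by 0.825, and is blank where the double knockout has 0 reads. The deposited signal, read density, is wild-type reads per base of region. Bowtie2, DESeq and the build mm9 are named in the submitters' processing notes, without role. No source used here gives the peak caller, filters or library totals, so depth is unknown.

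Coordinates are printed as deposited and match GRCm38: the deposited distance to a transcription start was met within 1 base by a RefSeq GRCm38.p6 start in 3480 of 4530 rows that could be compared (76.8%), and in 55 of 81 of the chromatin genes' rows (67.9%). Members were taken by symbol with pandas 2.3.3. Exact Clopper-Pearson and Poisson 95% intervals came from scipy 1.17.1. The fold intervals were run on simulated independent Poisson counts, for which they hold by construction. That run cannot show how they fare with reads that are PCR copies. No test between genotypes was possible with 1 library each. Classes of annotation were compared over regions counted once per gene.

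The members, lists and alternatives were chosen with earlier results of these data known. Named were up to 6 genes per role with the highest wild-type count, all genes with 3 or more regions, and the 6 genes at each end of the fold among the deeper ones, 41 in all. The other 16, outside that rule, are named too. A few items are not reported by name here, but enter all counts. Alternatives varied the constant, pseudocount, floor, threshold and subset of regions.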

Additional observations from a re-analysis of the deposited data

How the results depend on the processing

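The median log2 value of the chromatin regions (-4.22) was -3.42 with a pseudocount of 2, which enters the value directly, and stayed within its interval of -5.15 to -3.76 under the other 8 alternatives. Of the 111 regions, 65 were at least 10-fold lower. This number was 56 with a floor of 3.69 reads, the upper end of the interval of 0, and 25 at a threshold of 20-fold. It was 42 of 61 regions at or above the table's median mean count and 36 of 57 with 1 region per gene. The number without double-knockout reads (40) was 12 of those 61, 22 of those 57 and 24 of 91 exonic regions. Fewer regions were counted in these subsets. Leaving out the 4 Mllt genes, the regions shared with another gene or all of Mll2, chosen after seeing the data, kept both numbers within 1.5 times. For the named genes, 163 of 164 alternative values lay inside the counting interval, and the sum of all regions moved Mll2 from -5.85 to -3.73. Part of this was fixed in advance. For a gene with 1 region the sum is that region itself, and the interval of an empty region has no lower end on the log2 scale. No paired analysis was possible because each group has 1 library. Regions with few wild-type reads limit the folds that can be seen: at 15 reads the bound for an empty region is 4.12-fold.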
